A study of Drosophila melanogaster with 18 samples.

Results

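Total mRNA of whole male pupae was compared with total mRNA of whole female pupae at 48 hr after puparium formation (APF), a stage of metamorphosis at which the adult fly is being built inside the pupal case. The libraries were chosen by their labels as the male and female input samples, which gave 5 male libraries (replicates 1, 2, 3, 5 and 6) and 4 female libraries (replicates 2, 3, 4 and 5), or 9 of the 18 samples of the series. Both sexes had the same autosomal genotype, a UAS-GFP::RpL10A transgene over a UAS-Gal4 transgene (both in w+mC-marked P elements) together with fru P1-Gal4/+, and females were w/w and males w/Y at the white locus, so the GFP-tagged ribosomal protein and the fru P1 driver were carried by males and females alike and no library came from wild-type animals. Pupae were sorted by sex as white prepupae, aged at 25 °C in 12 hr of light and 12 hr of dark, and pooled at about 1000 animals per sample. Each library is the input of a ribosome purification, that is, poly(A)+ RNA from the lysate of the whole animal before any purification. The question was which genes and which exons differ between the sexes in the animal as a whole.

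Sex in Drosophila is set by the number of X chromosomes. In females the splicing factor Sxl is made and steers a cascade (tra, then dsx and fru) by alternative splicing. In males Sxl protein is absent, msl-2 is translated, and the male-specific lethal complex with its roX RNAs raises transcription of the single X. At midpupal stages the male gonad already holds spermatocytes, which transcribe many genes found in no other cell, whereas the pupal ovary holds early germ cells and has not begun to make yolk or eggshell.

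The total count per library was 30858349 to 58960302 in males and 24901633 to 31870712 in females. Pearson correlations of log2 CPM were taken across genes with over 2 CPM in every library of at least 1 sex. They were 0.990 to 0.997 between males, 0.967 to 0.995 between females and 0.360 to 0.576 between a male and a female library. Sxl, roX and Y-linked transcripts, described below, separated the libraries by their sex labels without exception. Female replicate 5 stood apart from the other female libraries. Its TMM scaling factor was 1.196, against 1.038, 1.024 and 1.057 in female replicates 2, 3 and 4, and 0.0668% of its counts lay in genes that passed the expression filter in males only, against 0.324%, 0.479% and 0.325% in female replicates 2, 3 and 4. The same genes took 24.5% to 27.9% of the counts in males. Among genes with over 2 CPM in every library, long genes were also lower in female replicate 5 than in the other females. In the 2184 genes with the longest exon sequence, its median log2 difference from the mean of all 4 female libraries was -0.31. The values of female replicates 2, 3 and 4 were 0.12, 0.1 and 0.05. In the 2184 genes with the shortest exon sequence the value of female replicate 5 was -0.02. For many genes nearly absent from females the value in each female library is therefore given.

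The composition of the 2 kinds of library differed widely. Of the counts in a library, genes at least 2-fold higher in males held 39.5% ± 1.33 in males and 3.6% ± 0.177 in females (mean ± SD over 5 and 4 libraries, as for all values written in this way). The 100 genes with the most counts took 22.6% ± 0.680 of the counts in males and 36.0% ± 0.171 in females. Values in CPM, counts scaled to the same library size, are shares of a library, so a large block of male transcripts lowers the share of all the others. TMM scaling, which lines up the bulk of genes, was used throughout, and the value of a result under other scalings is given where it changes a direction.

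Sex differences covered most of the transcriptome. Exon records with over 2 CPM in every library of at least one sex numbered 31853, from 10743 genes. By edgeR's exact test at an adjusted p under 0.2, 5313 genes (49.5%) had at least 1 record higher in males and 5680 genes (52.9%) had at least 1 record higher in females, with 675 genes in both sets. With counts summed per gene, 11636 genes passed the filter, of which 8736 passed in both sexes, 2532 in males only and 368 in females only. At this level the test placed 5295 genes (45.5%) on the male side, 5357 genes (46%) on the female side and 984 on neither. The libraries of the sexes did not overlap for 8890 genes (76.4%). In whole animals fewer cells of a type and less RNA per cell cannot be told apart, here and in all comparisons that follow.

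The male-biased and female-biased genes differed in size of effect. At least 2-fold higher in males (adjusted p under 0.05) were 3740 genes (32.1%), and at least 2-fold higher in females were 473 genes (4.06%), or 307 without male replicate 1. The female count moved with the scaling too, to 1075 with library totals alone, 185 when TMM factors came from genes present in all 9 libraries and 275 by RLE scaling. At least 4-fold higher were 2974 genes in males and 29 in females. Passing the filter through 1 sex alone favours genes higher in that sex by construction, and 2499 of the 3740 genes had passed through males alone, as had 125 of the 473 through females alone. Among the 8736 genes that passed in both sexes, 1241 (14.2%) were at least 2-fold higher in males and 348 (3.98%) in females. Scaling also changed the balance of calls among genes that passed in both sexes. At an adjusted p under 0.2, the male side held 2766 of these genes and the female side 5025, against 3545 and 3757 with TMM factors from genes present in all 9 libraries, and 2310 and 5744 with library totals alone. The median log2 fold change (male over female) of all genes was -0.03, and it was 0.21 and -0.22 under those scalings.

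**Figure D1:**
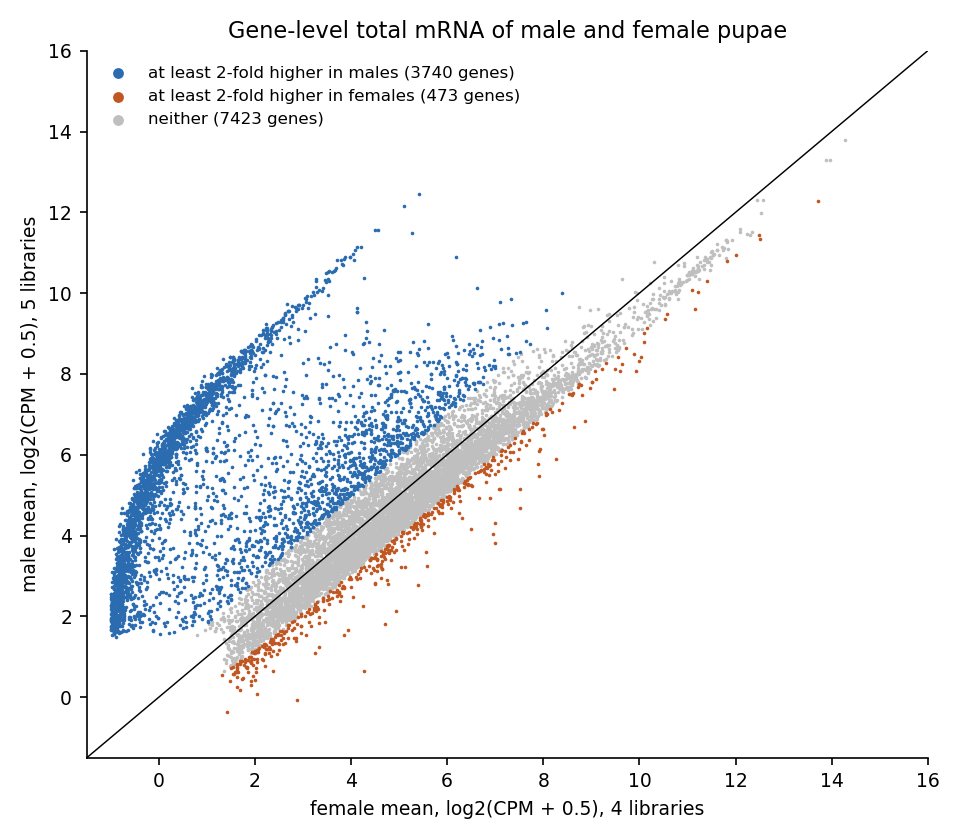
Mean total mRNA of each of 11636 genes in males (5 libraries, y axis) and females (4 libraries, x axis), both as log2(CPM + 0.5), with the line of equality. The 3740 genes at least 2-fold higher in males spread far above the line and form a dense edge at the lowest female values, whereas the 473 genes at least 2-fold higher in females lie close below it.

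The splicing cascade of sex determination was present in both sexes. Of 10 genes of the list, 1 was higher in males and 9 in females (adjusted p under 0.2), with a median log2 fold change of -0.47, beside -0.03 for all genes. In the list 9 genes passed in both sexes, a class with 2766 of 8736 genes on the male side and 5025 on the female side (median -0.28). With TMM factors from genes present in all 9 libraries, 1 and 7 genes of the list were called. The medians of the list and the class were then -0.24 and -0.04. Sxl (Sex lethal, the female switch, on X) had 42.2, 45.3, 41.2, 42.9 and 53.7 CPM in males, against 142, 136, 107 and 83.1 CPM in females, so that the lowest female library lay above the highest male one (log2 fold change -1.38 ± 0.19 SE). dsx (doublesex, the transcription factor at the end of the cascade) had 11, 16, 13.8, 13.0 and 14.2 CPM in males and 32.2, 30.4, 29.5 and 24.1 CPM in females (-1.10 ± 0.12), again without overlap. Of its counts 41.9% fell in exons shared with another gene.

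fru (fruitless, whose P1 transcripts direct male courtship) had 86.2, 83.3, 74.4, 78.5 and 96.5 CPM in males and 155, 146, 111 and 79.0 CPM in females. Female replicate 5 lay inside the male range, and the others lay above it (log2 fold change -0.55 ± 0.23, adjusted p = 0.0054). tra (transformer, the female splicing regulator below Sxl) averaged 11.3 ± 1.26 CPM in males and 14.9 ± 1.52 CPM in females (log2 fold change -0.40). tra2, the partner of tra in splicing and a gene also used in the male germ line, was the member higher in males, at 34.1 ± 2.99 CPM in males and 19.2 ± 1.46 CPM in females (0.83). Of the counts, 38.3% for tra and 54.9% for tra2 lay in exons shared with other genes.

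Among the 7 dosage compensation genes, the RNA components differed most. lncRNA:roX1, which with roX2 guides the complex to the X, had 335, 313, 199, 285 and 417 CPM in males, against 17.6, 12.5, 4.72 and 3.77 CPM in females. lncRNA:roX2 had 35.6, 43.3, 30.9, 41.0 and 45.2 CPM in males, against 1.62, 1.37, 0.321 and 0.347 CPM in females. Both groups were far apart for each RNA (log2 fold change 5.00 ± 0.53 for roX1 and 5.44 ± 0.38 for roX2), and within females both RNAs were lower in replicates 4 and 5 than in replicates 2 and 3. All counts of roX1 lay in exons that overlap another gene.

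The protein members differed less. msl-3, a chromodomain subunit of the complex, averaged 22.1 ± 0.646 CPM in males and 10.1 ± 1.41 CPM in females (log2 fold change 1.14), and mof, its histone acetyltransferase, averaged 8.43 ± 0.454 CPM in males and 4.23 ± 0.458 CPM in females (0.99). msl-2, the subunit that Sxl represses in females, averaged 15.9 ± 1.09 CPM in males and 9.80 ± 1.07 CPM in females (0.70), with 72.5% of its counts in shared exons. msl-1, the scaffold, and mle, the helicase, were called higher in females with overlapping libraries. For msl-1 the log2 fold change was -0.28, and the call was lost with TMM factors from genes present in all libraries (-0.04). That of mle was -0.21, it was not called with DESeq2 or RLE size factors (-0.07 with each), and it was 0.03 with the TMM factors from genes present in all libraries.

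The Y chromosome carries few genes, nearly all used in the testis for the sperm tail. Of 12 Y-linked genes of the list, 10 passed the filter, each through males only, and the remaining 2 (kl-3 and WDY) missed it. CCY, a coiled-coil gene, had 25.4, 22.6, 20.9, 23.5 and 27.9 CPM in males, against 0.116, 0.410, 0.183 and 0 CPM in females. kl-5, an axonemal dynein heavy chain, had 7.87 to 9.76 CPM in males, against 0.0578, 0.0912, 0.0917 and 0 CPM in females. ARY, an aldehyde reductase, had 8.46 to 11.7 CPM in males and at most 0.0917 CPM in females. kl-2, another dynein heavy chain, had 5.46 CPM in the male mean and 2 counts over all females together, a ratio of 230 (95% counting interval 63.6 to 1900). ORY had 3.17 CPM in the male mean and 1 count in females, a ratio of 266 (47.8 to 10500). Summed over the 10 genes, females had 12, 26, 16 and 0 counts in replicates 2, 3, 4 and 5.

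Small numbers of reads from male-limited genes were thus present in female replicates 2, 3 and 4 and nearly absent from replicate 5. The share was close in 3 lists of such genes and differed in another. The median member of the sperm chromatin, sperm leucyl aminopeptidase and testis proteasome lists had 0.993%, 0.843% and 1.09% of its male mean in female replicate 2, 1.5%, 1.43% and 1.72% in replicate 3, and 1.01%, 0.889% and 0.983% in replicate 4. In replicate 5 the median was 0 for all 3 lists. For the meiotic arrest regulators the medians were 4.27%, 2.25%, 1.43% and 0.304% in female replicates 2, 3, 4 and 5. Folds of these lists therefore depended on the female library they were taken against. With 0.5 CPM added to both values, which sets the ratio where the female value is 0, for the 7 aminopeptidases the median log2 ratio of the male mean to the mean of female replicates 2, 3 and 4 was 6.58, and it was 12.14 against replicate 5. For 19 sperm tail genes it was 6.26 and 9.55, for the 5 sperm chromatin genes 6.31 and 9.51, for the 14 testis proteasome duplicates 5.52 and 6.78, and for 11 meiotic arrest regulators 4.1 and 4.38. The added 0.5 CPM limits how large this ratio can be for genes of low CPM in males, as among the meiotic arrest regulators. The source of the reads from male-limited genes in females was not tested.

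**Figure D2:**
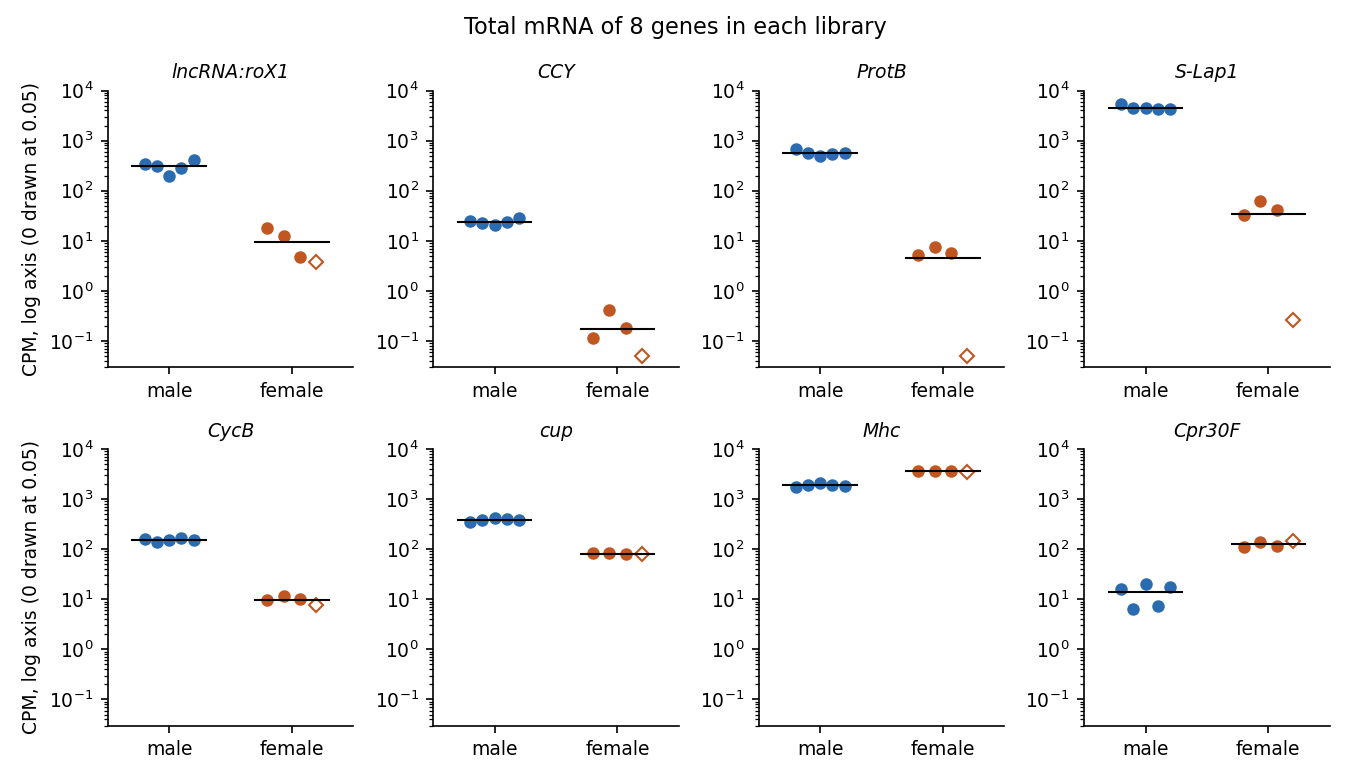
Total mRNA of 8 genes in each library, in CPM on a log axis (a value of 0 is drawn at 0.05), males left and females right, with bars at the group means and female replicate 5 as an open diamond. Female replicate 5 falls below the other females for CCY, ProtB and S-Lap1 and stays within the same order of magnitude as them for cup, Mhc and Cpr30F.

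Genes of spermatogenesis were far higher in males, and many were abundant. Of 13 meiotic arrest regulators, the testis-specific transcription machinery of spermatocytes, 13 were higher in males, 11 of which passed the filter through males only. aly, a subunit of the testis meiotic arrest complex, had 8.48 to 9.37 CPM in males, against 0.173, 0.137, 0.0917 and 0 CPM in females. can and nht, both testis-specific TAFs (subunits of the general transcription factor TFIID), averaged 13.2 ± 0.931 and 9.94 ± 0.762 CPM in males, against 0.636, 0.182, 0.0917 and 0 CPM for can and 0.0578, 0.137, 0.0917 and 0 CPM for nht in females. topi, a zinc finger partner of aly, averaged 38.4 ± 3.13 CPM in males, against 1.1, 0.866, 0.55 and 0.606 CPM in females.

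The 2 members that passed in both sexes were subunits also used elsewhere. achi, a homeodomain protein, averaged 23.2 ± 0.407 CPM in males and 6.53 ± 0.845 CPM in females (log2 fold change 1.83), and mip40, shared with the somatic dREAM repressor complex, averaged 58.0 ± 3.72 CPM in males and 15.3 ± 0.708 CPM in females (1.93).

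Early germ line genes went both ways. Of 15 such genes in the files, 11 passed the filter (5 in both sexes and 6 in males only), and 8 were higher in males and 3 in females. Of all 11636 genes tested, 5295 were higher in males and 5357 in females. bol, an RNA-binding regulator of meiotic entry, had 580 to 654 CPM in males, against 164, 161, 127 and 88.8 CPM in females (log2 fold change 2.17 ± 0.21). bgcn, which acts with bam to end the mitotic divisions, averaged 38.1 ± 1.47 CPM in males, against 0.694, 0.958, 1.7 and 0.477 CPM in females. twe, the Cdc25 phosphatase of meiosis, had 95.2 to 107 CPM in males and 1.17 to 2.66 CPM in females, with 95.8% of its counts in shared exons, and CycB3 averaged 30.9 ± 1.32 CPM in males and 1.77 ± 0.498 CPM in females. All 3 passed through males only.

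The genes on the female side were ovo, the cadherin gene shg (log2 fold change -0.36, with overlap) and vas. The first of them, ovo, a zinc finger factor of the female germ line and of the epidermis, had 12.1, 6.92, 6.56, 7.12 and 9.55 CPM in males, against 27.5, 26.4, 23.9 and 20.1 CPM in females (log2 fold change -1.53 ± 0.19), with no overlap. The helicase gene vas overlapped between the sexes, at 3.38 to 4.89 CPM in males and 3.88 to 5.8 CPM in females (-0.25, adjusted p = 0.137). Its call was lost without any one of male replicates 1 and 6 or female replicates 2, 4 and 5, and with DESeq2 (-0.13).

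The products of late spermatogenesis were among the most abundant male-limited RNAs. All 5 sperm chromatin genes tested passed through males only. ProtB, a protamine, had 681, 566, 487, 537 and 576 CPM in males, against 5.2, 7.57, 5.73 and 0 CPM in females. Mst77F, a linker-histone-like protein of the sperm nucleus, had 1190, 1120, 999, 1150 and 1130 CPM in males, against 11.1, 17.4, 12.3 and 0.173 CPM in females. ProtA, Prtl99C and Tpl94D, the last a transition protein, averaged 327 ± 51.5, 288 ± 22.9 and 364 ± 24.7 CPM in males. They lay between 2.77 and 5.56 CPM in female replicates 2, 3 and 4, and each had 0 counts in female replicate 5.

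Of 22 sperm tail genes 21 were higher in males, 19 of them through the male filter alone. The most abundant was loopin-1, a leucyl aminopeptidase-like protein of the mitochondrial derivatives, at 2910 to 3250 CPM in males and 22.7, 40.4, 25.0 and 0 CPM in females. dj (don juan), ocn and Mst98Ca, sperm tail proteins, averaged 1070 ± 317, 1460 ± 217 and 1440 ± 149 CPM in males. In female replicates 2, 3 and 4 they lay between 8.66 and 20.4 CPM, and in female replicate 5 they were at 0, 0.0866 and 0.173 CPM. betaTub85D, the testis-specific beta-tubulin of the axoneme, averaged 1130 ± 45.5 CPM in males, against 10.3, 14.9, 10.5 and 0.78 CPM in females. The mitofusin gene fzo, which joins spermatid mitochondria, averaged 146 ± 6.26 CPM in males, against 1.44, 2.1, 1.1 and 0.13 CPM in females.

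The tektins, filament proteins of the axoneme, showed 2 patterns. Tektin-A had 188 to 224 CPM in males, against 2.43, 2.74, 1.88 and 0.0866 CPM in females. Tektin-C had 134 to 165 CPM in males, against 5.55, 5.43, 5.00 and 5.37 CPM in females (log2 fold change 4.86 ± 0.06), so that here female replicate 5 was like the others. The one member on the female side was Pif1A, all of whose counts overlap another gene, at 1580 to 1830 CPM in males and 1760 to 2120 CPM in females (-0.19, adjusted p = 0.117). It was 0.05 with TMM factors from genes present in all libraries, and it was no longer called without any one of male replicates 1, 5 and 6 or female replicates 2 and 4.

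The 7 leucyl aminopeptidases of sperm (S-Laps), the most abundant proteins of the mature sperm of this species, all passed through males only. S-Lap1 had 5320, 4400, 4460, 4330 and 4220 CPM in males, against 33.2, 62.0, 40.6 and 0.260 CPM in females. S-Lap7 and S-Lap2 had 2890 to 3440 and 2150 to 2720 CPM in males, against 0 to 43.2 and 0 to 30.1 CPM in females, and S-Lap5 had 167 to 180 CPM in males against 0 to 3.24 CPM in females. The 7 genes together held 2224, 4931, 3065 and 7 counts in female replicates 2, 3, 4 and 5.

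**Figure D3:**
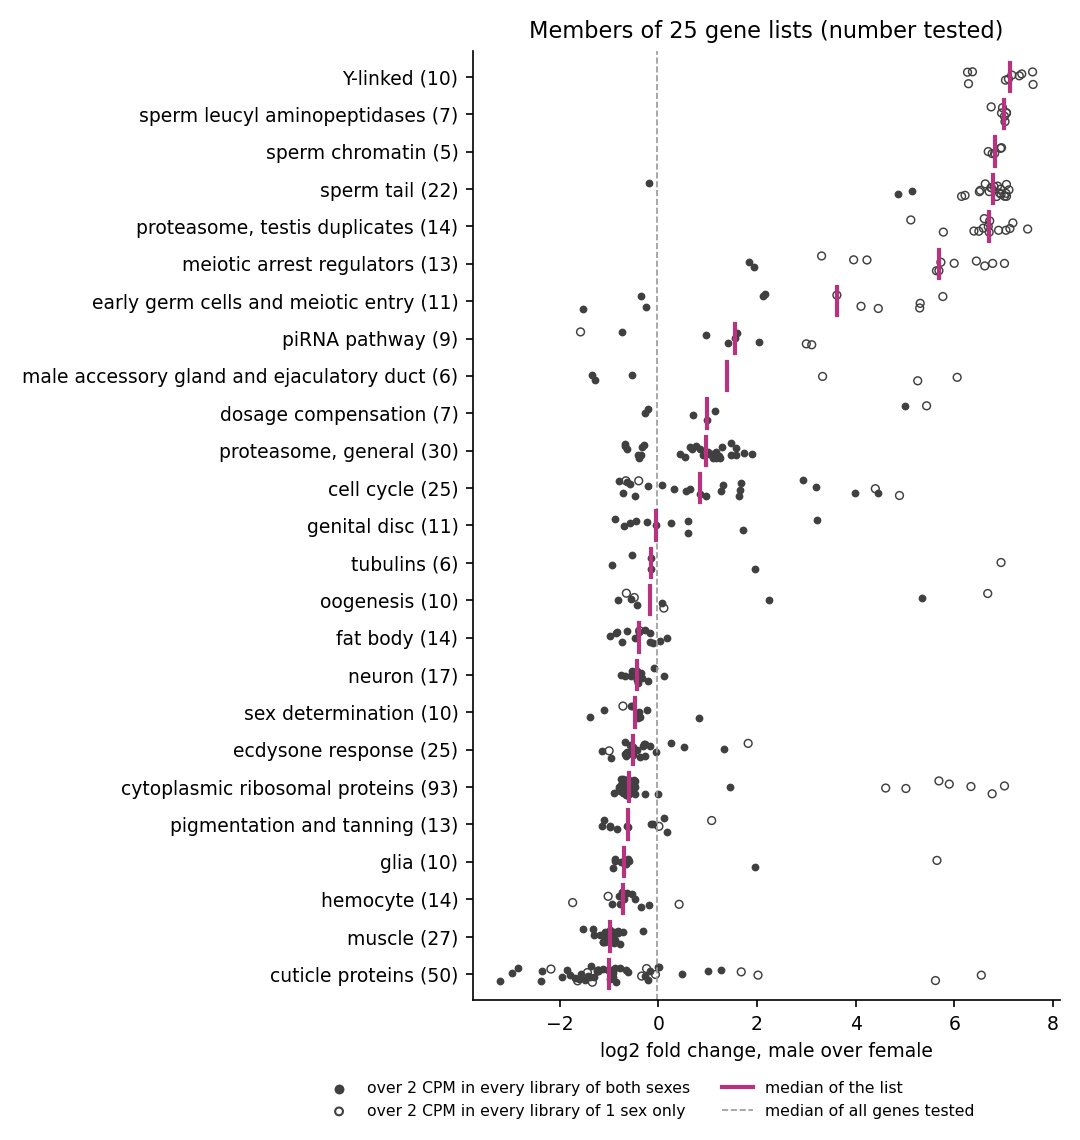
Log2 fold change (male over female, x axis) of each tested member of 25 gene lists, with the number tested in parentheses. Filled points passed the filter in both sexes and open points in 1 sex only, magenta bars are list medians and the dashed line is the median of all genes. The testis lists have medians of 5.69 to 7.13 with most points open, whereas muscle, cuticle and most other somatic lists sit below 0 with filled points.

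Many housekeeping complexes have duplicated genes used in the male germ line. The testis duplicates of the 20S and 19S proteasome were the plainest case. Of 15 listed, 14 passed the filter, each through males only. Prosalpha3T had 28.0 to 34.1 CPM in males, against 0.578, 0.182, 0.229 and 0 CPM in females. Prosbeta5R1 had 236, 195, 190, 199 and 190 CPM in males, against 1.16, 2.01, 1.33 and 0 CPM in females. Rpt3R, a duplicate of the ATPase Rpt3, had 49.7 to 61.7 CPM in males, against 2.20, 1.92, 1.05 and 1.39 CPM in females.

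The general proteasome subunits followed a second pattern. Of 30 tested, all passed in both sexes, with 22 on the male side and 8 on the female side. The median log2 fold change was 0.96, against -0.28 for all genes that passed in both sexes. With TMM factors from genes present in all libraries, 22 were on the male side and 5 on the female side. The female-biased subunits included Rpt3, Rpn12 and Prosalpha6, each of which has a testis duplicate in the list above. Rpt3 averaged 15.4 ± 2.46 CPM in males and 24.5 ± 3.53 CPM in females (log2 fold change -0.68), Rpn12 averaged 34.4 ± 4.33 CPM in males and 54.6 ± 4.45 CPM in females (-0.67), and Prosalpha6 averaged 47.7 ± 2.40 CPM in males and 58.7 ± 3.64 CPM in females (-0.30). The call of Prosalpha6 was lost with TMM factors from genes present in all libraries (-0.07) and with a replicate block on replicates 2, 3 and 5 (-0.16).

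Among the male-biased subunits, Rpn6 had the largest fold, with 237, 238, 249, 244 and 222 CPM in males, against 62.4, 65.9, 66.9 and 59.5 CPM in females (log2 fold change 1.90 ± 0.05). Rpn7 averaged 109 ± 4.27 CPM in males and 32.9 ± 0.389 CPM in females (1.73), all of it in shared exons, and Prosbeta1, a subunit of the core, averaged 167 ± 8.61 CPM in males and 60 ± 3.34 CPM in females (1.48).

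Tubulins include general and testis-specific copies. alphaTub84B, the main alpha-tubulin, was at 4640 to 5560 CPM in males and 5270 to 5900 CPM in females and passed no threshold (log2 fold change -0.15, adjusted p = 0.216, and 0.08 with TMM factors from genes present in all libraries). alphaTub84D, which encodes a nearly identical protein and may exchange reads with it, averaged 404 ± 16.7 CPM in males and 104 ± 6.34 CPM in females (1.96). betaTub56D, the general beta-tubulin, averaged 1260 ± 64.2 CPM in males and 1820 ± 54.6 CPM in females (-0.53), and betaTub97EF averaged 101 ± 6.99 CPM in males and 193 ± 9.22 CPM in females (-0.94).

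Of 93 cytoplasmic ribosomal protein genes 8 were higher in males, 84 in females and 1 was not called, with a median log2 fold change of -0.60. In the list 86 genes passed in both sexes, as did 8736 genes in all. Of those 8736 genes, 2766 were on the male side and 5025 on the female side (median -0.28). With TMM factors from genes present in all libraries the 2 medians were -0.36 and -0.04. Among the female-biased genes RpL38 was at 258 ± 15.7 CPM in males and 486 ± 27.2 CPM in females (-0.91). The 8 male-biased genes were extra copies, 7 of which passed through males only. RpL22-like had 37.1 to 43.2 CPM in males, against 0.231, 0.410, 0.550 and 0.0433 CPM in females. RpL37-2 averaged 16.7 ± 0.989 CPM in males and 0.204 ± 0.0959 CPM in females. RpS19b averaged 36.5 ± 2.33 CPM in males and 1.51 ± 0.413 CPM in females, and RpS5b averaged 34.0 ± 2.48 CPM in males and 12.3 ± 0.867 CPM in females (1.46). The whole list took 10.4% to 12.4% of the counts in males and 19.7% to 20.8% in females.

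Cell cycle genes differed in both directions. Of 25 tested, 16 were higher in males and 8 in females (median log2 fold change 0.85). For all 11636 genes tested the counts were 5295 and 5357 (median -0.03). CycB, a mitotic cyclin, had 162, 142, 152, 164 and 153 CPM in males, against 9.71, 11.6, 10 and 7.62 CPM in females (3.99 ± 0.13). polo, the kinase of the spindle and cytokinesis, averaged 168 ± 7.37 CPM in males and 7.64 ± 0.936 CPM in females (4.46), CycA averaged 86.0 ± 4.70 CPM in males and 9.45 ± 0.544 CPM in females (3.19), and fzy, an activator of the anaphase-promoting complex, averaged 35.8 ± 1.24 CPM in males and 1.67 ± 0.450 CPM in females.

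Among the remaining members, PCNA, the sliding clamp of replication, averaged 9.71 ± 0.938 CPM in males and 4.96 ± 0.430 CPM in females (log2 fold change 0.96). CycD averaged 10.3 ± 0.468 CPM in males and 17.2 ± 1.25 CPM in females (-0.72), and RnrL, a ribonucleotide reductase subunit, averaged 4.19 ± 0.476 CPM in males and 7.34 ± 0.690 CPM in females (-0.80).

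The piRNA pathway silences transposons in the gonads of both sexes. Of 16 genes 9 passed the filter, with 7 higher in males and 2 in females, beside 5295 and 5357 of all 11636 genes tested. krimp, a Tudor protein, averaged 7.46 ± 0.994 CPM in males and 0.945 ± 0.227 CPM in females, and vret averaged 12.6 ± 0.943 CPM in males and 1.48 ± 0.178 CPM in females. spn-E, a helicase, averaged 6.97 ± 0.216 CPM in males and 2.33 ± 0.337 CPM in females (log2 fold change 1.59). On the female side were piwi, the nuclear Argonaute, at 1.16 ± 0.141 CPM in males and 3.54 ± 0.780 CPM in females, with 79.4% of its counts in shared exons, and tud, at 267 to 295 CPM in males and 553, 551, 419 and 324 CPM in females (-0.73 ± 0.19).

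Of 28 genes of oogenesis 10 passed the filter. Many genes that mark a maturing ovary missed it. The posterior determinant osk had 0.0599 to 0.24 CPM in males and 1.56 to 2.37 CPM in females, the anterior determinant bcd had 0 to 0.18 CPM in males and 0.173 to 0.413 CPM in females, and the yolk protein gene Yp1 had 0.0599 to 0.0972 CPM in males and 0.0433 to 0.275 CPM in females, all untested. Of the 10 tested genes 3 were called on the male side and 5 on the female side, with a median log2 fold change of -0.18, or 0.06 with TMM factors from genes present in all libraries. For all 11636 genes tested the counts were 5295 and 5357, and the medians were -0.03 and 0.21.

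The largest differences in this list were on the male side. orb, a translational regulator that also acts in spermatogenesis, had 329, 343, 320, 324 and 329 CPM in males, against 9.48, 10.5, 8.02 and 4.33 CPM in females (log2 fold change 5.35 ± 0.27). cup, a translational repressor, had 343, 384, 410, 408 and 388 CPM in males, against 82.6, 85.1, 78.9 and 80.2 CPM in females (2.24 ± 0.05), with all counts in shared exons. The chorion gene Cp15 had 4.13 to 8.38 CPM in males, against 0.116, 0.137, 0 and 0 CPM in females.

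On the female side, grk, the dorsoventral signal of the oocyte, had 11.4 to 15.3 CPM in males and 21.6 to 25.3 CPM in females (log2 fold change -0.82), with 67.2% of its counts in shared exons. egl, a partner of dynein in RNA transport, averaged 30.8 ± 2.75 CPM in males and 45.0 ± 3.91 CPM in females (-0.55). yl, the yolk receptor, overlapped between the sexes, at 1.95 to 2.96 CPM in males and 2.08 to 4.56 CPM in females (-0.65), and 87.7% of its counts lay in shared exons.

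Glands of the male reproductive tract left little trace at this stage. Of 19 accessory gland and ejaculatory duct genes 6 passed the filter. SP, the sex peptide, had no counts in any library, and Acp26Aa, another seminal peptide, reached at most 0.338 CPM in males and 0.0578 CPM in females. Of the 6 tested, 3 passed through males only and were higher there, among them prd, a transcription factor needed to form the gland, at 16.1 ± 1.20 CPM in males and 0.428 ± 0.157 CPM in females. Acp36DE, a seminal protein, had 3.5 to 4.81 CPM in males, against 0, 0.0912, 0.0458 and 0.0866 CPM in females. The other 3 were higher in females, namely EbpIII, an ejaculatory bulb protein, at 54.1 to 68.5 CPM in males and 144 to 155 CPM in females (log2 fold change -1.29 ± 0.07), Est-6, an esterase, at 8.98 ± 0.777 CPM in males and 22.8 ± 2.89 CPM in females (-1.34), and Gld, glucose dehydrogenase, at 25.3 ± 4.47 CPM in males and 36.9 ± 3.46 CPM in females (-0.54).

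The genital disc builds the external and internal genitalia of both sexes from the same primordia. Of 11 tested genes of this list, all of which passed in both sexes, 5 were called on the male side and 5 on the female side. Among all genes that passed in both sexes, 2766 of 8736 were on the male side and 5025 on the female side. The median log2 fold change of the list was -0.05, against -0.28 for those genes. With TMM factors from genes present in all libraries the medians were 0.19 and -0.04. cad, a homeobox gene of the hindgut and analia, had 35.5, 39.5, 35.6, 42.9 and 36.0 CPM in males, against 4.91, 4.06, 4.54 and 2.90 CPM in females (3.22 ± 0.16). lov, a BTB protein, had 26.8 to 30.8 CPM in males and 7.67 to 9.21 CPM in females (1.72 ± 0.06), with 47.0% of its counts in shared exons. The nuclear factor gene dac averaged 35.6 ± 1.99 CPM in males and 23.6 ± 2.94 CPM in females (0.59).

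The signalling genes bnl, an FGF, and btl, its receptor, which differ between male and female genital discs, were both higher in females in the whole animal. bnl had 62.3 to 89.3 CPM in males and 103 to 167 CPM in females (log2 fold change -0.89), and btl averaged 14.6 ± 1.05 CPM in males and 23.8 ± 1.72 CPM in females (-0.70). wg averaged 3.19 ± 0.476 CPM in males and 4.84 ± 0.804 CPM in females (-0.58).

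Cuticle proteins were mostly on the female side, with a median log2 fold change of -1, close to the -0.98 of the muscle genes described below. Of 125 genes 50 passed the filter (38 in both sexes, 7 in males only and 5 in females only). On the male side 6 were called, on the female side 37 and on neither 7. Of all 11636 genes tested, 5295 were on the male side and 5357 on the female side (median -0.03). Cpr30F, a chitin-binding protein of the R&R family, had 16.2, 6.49, 20.6, 7.44 and 17.8 CPM in males, against 112, 137, 118 and 144 CPM in females (-3.22 ± 0.34). Cpr30B had 24.5, 7.16, 20.6, 5.69 and 21.4 CPM in males, against 113, 129, 118 and 136 CPM in females (-2.97 ± 0.43). Cpr64Ac had 39.1, 9.23, 36.6, 10.2 and 32 CPM in males, against 177, 206, 173 and 171 CPM in females (-2.84 ± 0.46).

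The females lay well above the males for all 3 genes, and within males replicates 2 and 5 were lower than replicates 1, 3 and 6 each time. The same split was seen for CG13231, at 5.51, 1.44, 5.64, 1.33 and 5.52 CPM in males and 23.3 to 35.9 CPM in females. It was smaller in Cpr92F, at 241, 204, 328, 230 and 338 CPM in males and 875 to 1040 CPM in females (log2 fold change -1.86 ± 0.15). The labels gave no batch that separates male replicates 2 and 5.

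Of the 6 cuticle genes on the male side, Twdlalpha and TwdlP had the largest folds. Twdlalpha, a Tweedle family protein, had 106 to 144 CPM in males, against 1.68, 2.37, 1.19 and 0.303 CPM in females, and TwdlP had 3.72 to 4.79 CPM in males and 0 to 0.138 CPM in females. Both passed through males only. A further gene of the list, Cpr50Ca, averaged 216 ± 59.6 CPM in males and 216 ± 22.7 CPM in females, and without male replicate 1 its log2 fold change was 0.23 and it was called.

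Genes named for the size of their female bias included several cuticle genes. sordd2, on X, had 1.41, 1.35, 1.26, 0.728 and 0.542 CPM in males, against 19.6, 21.3, 17.7 and 16.5 CPM in females, the largest fold on this side (log2 fold change -4.20, adjusted p = 3.56e-84). Tehao, a Toll-related receptor, had 0.337 to 0.583 CPM in males and 5.55 to 7.94 CPM in females (-3.91), with 92.6% of its counts in shared exons. CG2444 (-3.11, 78.9% in shared exons) and CG34327 (-2.72), both on X, followed the same direction. By difference in CPM, CG34461, which RefSeq also lists as Cpr66Ca, had 3680 to 6590 CPM in males and 14200, 17000, 12500 and 10300 CPM in females (-1.45). Vajk3 and Vajk2, cuticle proteins of the Vajk family, averaged 2580 and 1980 CPM in males and were 1.18 and 1.06 lower on the log2 scale than in females. CG7214 had 637 to 950 CPM in males and 2040 to 2450 CPM in females (-1.56).

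Pigmentation and tanning genes pointed the same way, with 2 of 13 tested genes on the male side, 7 on the female side and a median log2 fold change of -0.62. Genes that passed in both sexes, 11 of these 13, had 2766 of 8736 on the male side, 5025 on the female side and a median of -0.28. e (ebony), which makes the tan cuticle precursor, averaged 12.2 ± 1.86 CPM in males and 26.4 ± 0.803 CPM in females (-1.11), and t (tan), which acts in the reverse direction, averaged 5.46 ± 1.47 CPM in males and 9.83 ± 0.444 CPM in females (-0.85). bw, an eye pigment transporter, averaged 19.7 ± 1.96 CPM in males and 43.4 ± 2.71 CPM in females (-1.14), and Pu, which starts pteridine synthesis, averaged 9.32 ± 0.875 CPM in males and 18.4 ± 2.89 CPM in females (-0.98). v (vermilion), the first enzyme of ommochrome synthesis, passed through males only, at 2.48 to 4.07 CPM in males and 1.13 to 2.10 CPM in females.

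All 27 muscle genes passed in both sexes and were higher in females, with a median log2 fold change of -0.98, from -1.53 to -0.31. Among all genes that passed in both sexes, 2766 of 8736 were on the male side and 5025 on the female side (median -0.28). When TMM factors came from genes present in all libraries, the 2 medians were -0.75 and -0.04, and 1 of the 27 muscle genes lost the call. Mhc, the muscle myosin heavy chain, had 1710, 1900, 2080, 1880 and 1860 CPM in males, against 3670, 3560, 3670 and 3430 CPM in females (-0.93 ± 0.05). Mlc2, the regulatory light chain, had 2420 to 3110 CPM in males and 5590 to 5870 CPM in females (-1.04). wupA, troponin I, averaged 652 ± 53.7 CPM in males and 1490 ± 21.4 CPM in females (-1.19).

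The genes specific to the indirect flight muscle were on the same side. Act88F, its actin, averaged 1270 ± 163 CPM in males and 2700 ± 237 CPM in females (log2 fold change -1.09), and fln, flightin, averaged 269 ± 20.1 CPM in males and 774 ± 46.7 CPM in females (-1.53), with 99.7% of its counts in shared exons. Act87E, an actin of larval and adult body wall muscle, differed least, at 1010 ± 59.4 CPM in males and 1250 ± 100 CPM in females (-0.31). Its call was lost without male replicate 1 (-0.18) and with TMM factors from genes present in all libraries (-0.08). The summed muscle list took 1.28% to 1.71% of the counts in males and 3.17% to 3.80% in females.

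Markers of other somatic tissues are to be read beside all genes that passed in both sexes, of which 2766 of 8736 were on the male side and 5025 on the female side, with a median log2 fold change of -0.28. Of 17 neuronal genes 15 were higher in females and the remaining 2, brp and Rab3, were not called (median log2 fold change -0.44). With TMM factors from genes present in all libraries 2 were on the male side and 11 on the female side. elav, an RNA-binding protein of all neurons, had 82.5, 80.9, 58.9, 70.9 and 91.2 CPM in males and 125, 129, 110 and 87.2 CPM in females (-0.55), with overlap through female replicate 5. nSyb, the synaptic vesicle synaptobrevin, averaged 73.1 ± 5.41 CPM in males and 99.6 ± 6.98 CPM in females (-0.44), and Gad1, the enzyme that makes GABA, averaged 14.5 ± 1.66 CPM in males and 24.6 ± 1.77 CPM in females (-0.76).

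Of 10 glial genes tested 2 were on the male side and 8 on the female side. repo, the glial identity factor, averaged 9.50 ± 0.638 CPM in males and 15.0 ± 1.96 CPM in females (log2 fold change -0.65), and Eaat1, the glutamate transporter, averaged 15.8 ± 1.05 CPM in males and 29.3 ± 2.61 CPM in females (-0.89). The members on the male side were nrv2, a sodium pump subunit, at 353 to 374 CPM in males and 77.5 to 106 CPM in females (1.96), and gcm, a determinant of glia and hemocytes, at 28.5 to 50.7 CPM in males and 0.405 to 1.10 CPM in females, with 99.8% of its counts in shared exons.

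Of 14 fat body genes 1 was higher in males and 10 in females (median log2 fold change -0.39). apolpp, the lipid carrier of the blood, had 970 to 1170 CPM in males and 1550, 1570, 1540 and 1210 CPM in females (-0.47), and Tsf1, transferrin, averaged 187 ± 22.4 CPM in males and 339 ± 12.0 CPM in females (-0.86). Of 14 hemocyte genes 1 was higher in males and 13 in females (median -0.71). eater and NimC1, phagocytic receptors, averaged 1.20 ± 0.240 and 2.91 ± 0.278 CPM in males and 4.12 ± 1.13 and 5.04 ± 0.802 CPM in females, and Ppn, an extracellular matrix protein, averaged 142 ± 9.57 CPM in males and 272 ± 24.1 CPM in females (-0.94). Hml, hemolectin, was the member on the male side, at 2.28 to 3.20 CPM in males and 1.5 to 2.89 CPM in females (0.42, with overlap). It was 0.23 without a call with library totals alone.

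Ecdysone times metamorphosis in both sexes. Of 25 response genes 4 were on the male side and 19 on the female side (median log2 fold change -0.51). Genes that passed in both sexes, 23 of these 25, numbered 8736 in all. On the male and female sides were 2766 and 5025 of the 8736 (median -0.28). EcR and usp, the subunits of the receptor, averaged 22.1 ± 3 and 24.0 ± 1.51 CPM in males and 33.5 ± 7.81 and 37.1 ± 3.28 CPM in females (-0.60 and -0.63). ftz-f1, the competence factor of the prepupa, had 13.4 to 19.4 CPM in males and 26.0 to 46.3 CPM in females (-1.14 ± 0.21). The male side held shd, the enzyme that turns ecdysone into its active form, at 6.56 to 7.79 CPM in males and 2.34 to 3.74 CPM in females (1.34), and Hr39, a nuclear receptor, at 31.6 ± 0.842 CPM in males and 26.6 ± 2 CPM in females (0.25, and 0.06 without a call with library totals alone).

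The genes with the largest male folds were noncoding or known only by computed symbols. CG17267 (3R), lncRNA:CR46259 (2L) and asRNA:CR45995 (X) had 0 counts in all 4 female libraries. Taking a floor of 3 counts over the 4 female libraries together, 0.0357 CPM, they were at least 152-fold, 150-fold and 143-fold higher in males, with male means of 5.42, 5.35 and 5.11 CPM. Of the counts of CG17267 and asRNA:CR45995, 91.9% and 100% lay in shared exons.

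CG43271 had 6.07 to 9.88 CPM in males and 1 count in females, a ratio of 678 (95% counting interval 122 to 26800). CR45879, CG43192 and lncRNA:CR45876 also had 1 count in females, with ratios of 608 (109 to 24000), 567 (102 to 22400) and 515 (92.5 to 20400), and lncRNA:CR44344 had 11.5 to 13.7 CPM in males and 2 counts in females, a ratio of 518 (144 to 4280). By difference in CPM the leaders besides the aminopeptidases and loopin-1 were CG4836, at 6320, 5620, 5480, 5390 and 5120 CPM in males and 45.9, 76.3, 45.7 and 0.260 CPM in females, and FBgn0267727, which has no symbol in the tables used, at 2520 to 3380 CPM in males and 41.6, 59.7, 36.5 and 15.1 CPM in females.

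Noncoding genes were frequent among such transcripts. Of 342 genes that passed in males and had 3 or fewer counts in each female library, 223 (65.2%) were annotated as noncoding RNA and 57% had a single exon record. These genes were weak in males, with a median of 4.57 CPM, against 32.3 CPM for all 2532 genes that passed in males only. Of those 2532 genes, 19.3% were noncoding RNA and 39.9% had a single exon record. Whether the noncoding share depends on the level in males was not tested. No gene passed in females with 3 or fewer counts in each male library. This limit is in raw counts, and the male libraries were mostly deeper and were more numerous, so it was stricter in males than in females. Over all genes at least 2-fold higher in males, 13.3% were noncoding RNAs, against 5.57% of all genes tested, 29.6% had a single exon record, against 15.6%, and 62.2% had only a computed symbol, against 43.2%. Their median summed exon length was 1377 bases, against 1906.5 bases for all genes tested. Neighbours also tended to be called together, with unbroken runs of up to 22 adjacent tested genes on 2L (lncRNA:CR44919 to CG6675), 21 on 2R (CG13539 to CG9875) and 15 on 3R at least 2-fold higher in males. Neighbours in such runs can share exons and are not independent.

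The X and chromosome 4 differed from the other arms. Among genes that passed in both sexes, 9.66% of 1459 X-linked genes were at least 2-fold higher in males, against 14.5% to 16% on 2L, 2R, 3L and 3R, and 7.40% were at least 2-fold higher in females, against 2.86% to 3.64%. The median log2 fold change was -0.42 on X and -0.23 to -0.27 on the major autosomal arms, a difference that does not depend on scaling, because a scaling factor moves all arms by the same amount. On chromosome 4, 1 of 77 genes was at least 2-fold higher in males and 5 in females (median -0.54). X-linked genes took 12.0% to 12.2% of the counts in males and 15.1% to 15.8% in females. Male-only genes were also less frequent on X, at 17.5% of its tested genes, against 21% to 27.5% on the major autosomal arms. All 13 Y-linked genes tested passed through males only.

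**Figure D4:**
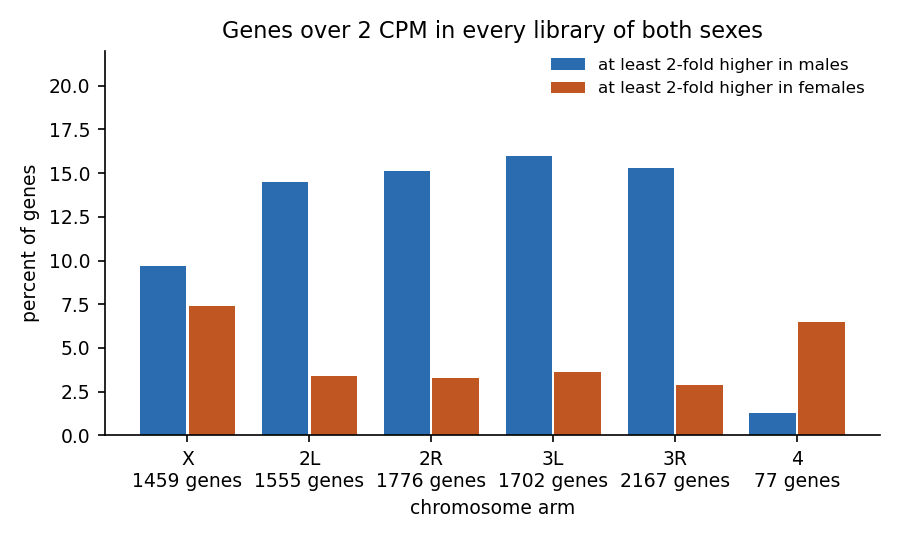
Percent of genes at least 2-fold higher in males (blue, left bar) and in females (orange, right bar) on each chromosome arm, among genes with over 2 CPM in every library of both sexes, with the number of genes under each arm. The X has 9.66% and 7.40%, whereas the 4 large autosomal arms have 14.5% to 16% and 2.86% to 3.64%.

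Exon records within a gene often differed in a way that the gene total did not. Of 5900 genes tested for exon usage (25817 records), 1793 (30.4%) had records that departed from the change of their gene (diffSpliceDGE, adjusted p under 0.05). The record with the strongest departure was relatively higher in males in 1511 genes and in females in 282. For 1130 of the 1793 genes the gene-level change was under 2-fold, and in 571 of these the leading record was nevertheless at least 2-fold higher in males, against 12 at least 2-fold higher in females. In 301 genes the leading record changed in the opposite direction to its gene. Records could enter the usage test through the filter in either sex alone, which favours records higher in that sex by construction. Of the 31853 records that passed the filter, 8639 passed in males only and 2897 in females only. The counts of leading records by direction were not split in this way, and how far they depend on the filter was not tested. The values below are CPM of single records.

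The known sex-specific exons were plain in dsx (3R, minus strand, build dm6, adjusted p = 1.22e-17 for usage by edgeR's diffSpliceDGE). The record at 7934482 to 7935653, in the region of the female-specific exon, had 0.339, 0.199, 0.335, 0.0899 and 0.143 CPM in males, against 16.4, 16.4, 14.5 and 11.7 CPM in females (log2 fold change -6.12, adjusted p = 2.17e-163). The last exon record of the gene, at 7924323 to 7925360, had 5.36, 7.03, 4.68, 5.45 and 6.58 CPM in males, against 2.80, 2.07, 2.32 and 1.77 CPM in females (1.38), and it overlaps another gene. The record before it, at 7930171 to 7930687, was under the filter, at 1.59 to 2.58 CPM in males and 0.342 to 0.446 CPM in females. Neither pair of groups overlapped, and the gene total, higher in females, combined exons that differed in opposite directions.

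In Sxl (X, minus strand, adjusted p = 2.26e-24 for usage by edgeR) the record at 7076710 to 7079367 had 3.18 to 4.21 CPM in males, against 38.9, 37.5, 30.9 and 26.8 CPM in females (log2 fold change -3.18). The record at 7082921 to 7084819 had 15.5 to 21.9 CPM in males and 7.96 to 15.4 CPM in females (0.59), the highest female value lying just under the lowest male value. In fru (3R, minus strand, adjusted p = 7.83e-12 for usage by edgeR) the record at 18415473 to 18417300 had 10.8 ± 0.900 CPM in males and 5.2 ± 1.24 CPM in females (1.06), although the gene total was higher in females. A longer record that contains it, at 18414273 to 18417300, was not called, at 17.1 ± 1.78 CPM in males and 18.5 ± 5.77 CPM in females (-0.11). The record at 18513451 to 18515343 was under the filter, at 0.0373 ± 0.0302 CPM in males and 0.795 ± 0.264 CPM in females. tra, tra2 and msl-2 gave no call for usage (adjusted p = 0.816, 0.271 and 0.415).

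Most of the 10 genes with the smallest usage p held exon records that were far higher in males, beside others that differed little or were higher in females. In Syp, an RNA-binding protein of the nervous system and germ line (adjusted p = 6.68e-60 for usage by edgeR), the record at 3R 20800017 to 20800300 had 30.7, 35.9, 42.8, 31.5 and 32.1 CPM in males, against 0.691, 0.517, 0.573 and 0.187 CPM in females (log2 fold change 6.16). The long last record at 20805947 to 20810726 had 600 ± 114 CPM in males and 1010 ± 286 CPM in females (-0.75). In Jupiter, a microtubule-binding protein (adjusted p = 8.49e-47 for usage by edgeR), the record at 3R 11591501 to 11591911 had 145 to 174 CPM in males and 1.99 to 4.10 CPM in females (5.56), whereas the last record, at 11590386 to 11591307, had 952 ± 89.7 CPM in males and 760 ± 92.7 CPM in females (0.32).

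Kinase and cytoskeletal genes also held such records, and 2 of them, gish and spir, were higher in males as whole genes (log2 fold change 2.28 and 2.57). In sgg, the GSK-3 kinase, the record at X 2673906 to 2674273 had 5.22 to 6.61 CPM in males, against 0.122, 0.0969, 0.0955 and 0 CPM in females. In gish, a casein kinase (adjusted p = 1.31e-42 for usage by edgeR), the record at 3R 16297457 to 16297960 had 83.3 to 124 CPM in males and 0.0933 to 2.29 CPM in females, and the last record, at 16301823 to 16304768, had 30.8 ± 3.32 CPM in males and 45.7 ± 9.86 CPM in females (log2 fold change -0.57). In Mical, an actin-oxidizing enzyme, the record at 3R 10018824 to 10019435 had 42.0 ± 3.07 CPM in males and 1.30 ± 0.329 CPM in females (5.01). In spir, an actin nucleator (2L), the record at 20339582 to 20339939 had 55.5 ± 5.02 CPM in males and 1.05 ± 0.282 CPM in females (5.72), and that at 20346950 to 20348386 had 13.6 ± 1.06 CPM in males and 20.5 ± 2.22 CPM in females (-0.59).

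The remaining genes of the top 10 were bru1, an RNA-binding splicing regulator, promL, drn and yuri. In bru1 the 90-base record at 2L 12312376 to 12312465 had 56.9 ± 12.1 CPM in males and 1.47 ± 0.442 CPM in females (log2 fold change 5.28). In promL the record at 3L 3117448 to 3117973 had 53.4 ± 6.81 CPM in males and 3.12 ± 0.499 CPM in females (4.10). In drn the record at 3R 9356424 to 9357455 overlaps another gene and had 159 ± 7.33 CPM in males and 1.41 ± 0.880 CPM in females. In yuri (2L), which is needed for sperm individualization, the gene as a whole was higher in males, and the record that departed was at 15261209 to 15261637, at 7.66 ± 0.643 CPM in males and 4.07 ± 0.639 CPM in females (0.92), against 55.7 ± 6.86 CPM in males and 0.860 ± 0.335 CPM in females (6.01) at 15257799 to 15258105.

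**Figure D5:**
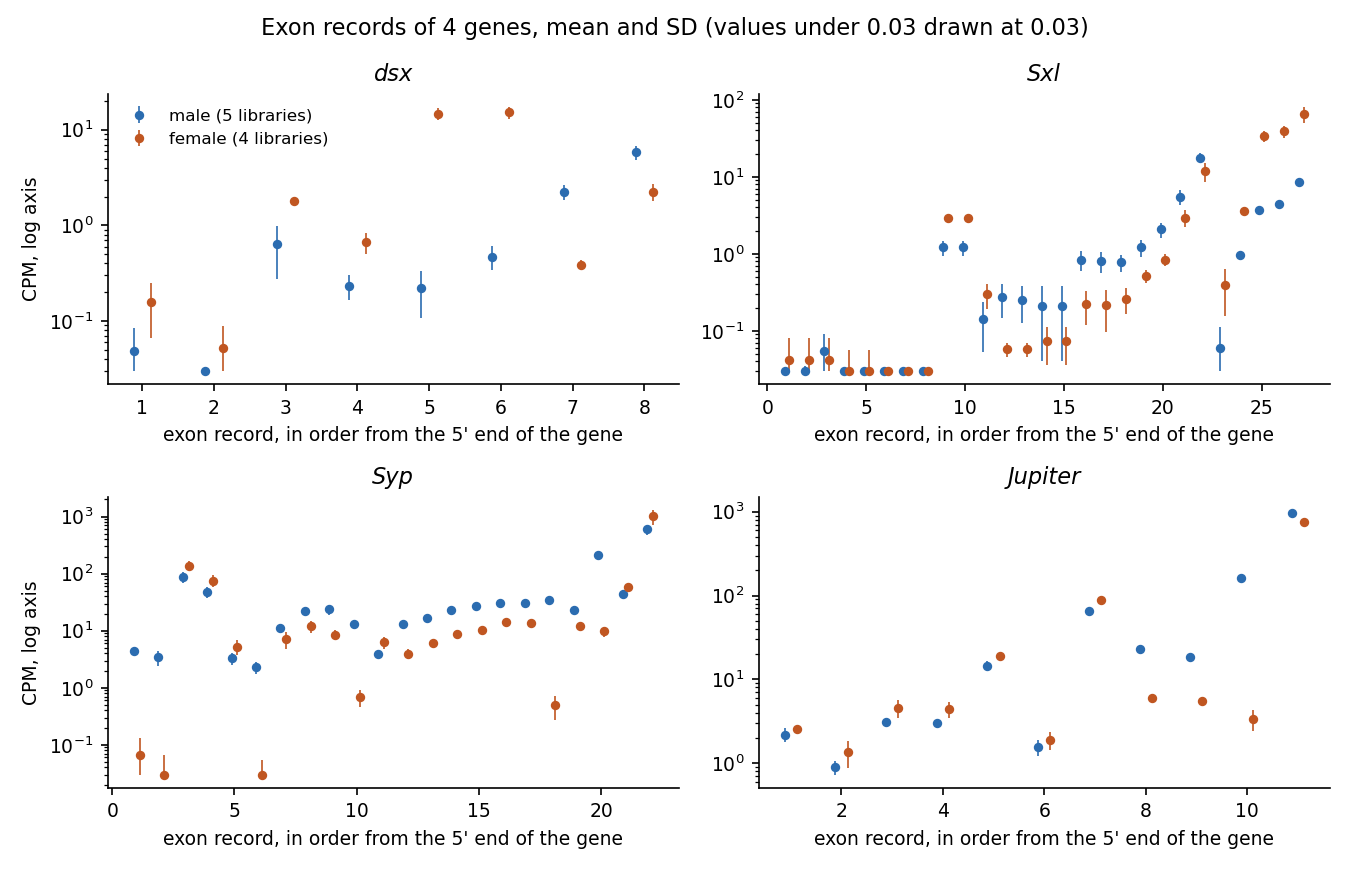
Exon records of dsx, Sxl, Syp and Jupiter in order from the 5' end of the gene (x axis), as mean CPM with SD bars on a log axis, males (5 libraries) in blue and females (4 libraries) in orange. In dsx the female values lie far above the male ones at a pair of records and below them at the last, whereas in Syp and Jupiter single records are nearly absent in females and the last records are close.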

How the data were processed

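Poly(A)+ RNA of whole pupae was sequenced in 5 male and 4 female input libraries. Per the submitters' processing notes reads were aligned with STAR 2.7.2a to dm6 (BDGP6) and handled with SAMtools 1.2, and featureCounts counted uniquely mapped reads per exon. The authors deposited these raw counts, 1 file per library, for 87508 exon records of 17753 genes, and the strand setting and annotation release are not given in the sources used here. Records that overlap another gene numbered 4063 for genes of the same orientation and 6928 for genes of the opposite one, so their reads may belong to either gene (called shared exons in the text).

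Records with over 2 CPM in every library of at least one sex were tested with edgeR 4.0.16 (R 4.3.3), using TMM factors, tagwise dispersion, the exact test and Benjamini-Hochberg adjustment over all records (adjusted p under 0.2). Counts of 69946 non-overlapping records of each gene were summed and tested in the same way, at an adjusted p under 0.2 for calls on lists and under 0.05 with at least 2-fold for counts by size. Exon usage was tested with diffSpliceDGE in edgeR, with Simes p-values per gene (adjusted p under 0.05). Standard errors came from log2(CPM + 0.5). DESeq2 1.42.0 served in alternatives. The gene-level exact test and the exon usage test were also run on simulated data, and the other fits were not. Libraries held 24901633 to 58960302 counts, and the biological coefficient of variation was 13.1% for genes. Intervals and the floor of 3 counts cover counting error only.

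The 9 libraries were grouped by their labels, each from about 1000 pooled animals. The authors describe the libraries of a condition as biological replicates, and nothing in the labels states whether they were independent collections. The p-values therefore measure the spread between these samples. Named genes were, per direction, the 8 with the largest fold and the 6 with the largest difference in CPM (at least 5 CPM in the higher sex, no overlap between libraries), the 10 with the smallest exon usage p, and members of the gene lists. The members and the lists were chosen with earlier results of these data known. Alternatives covered the test, the scaling, the filter, overlapping records, a replicate block and leaving out each library. Libraries of purified ribosome-bound mRNA and a deposited table of RPM values for the whole series entered no comparison.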

Additional observations from a re-analysis of the deposited data

Results flagged for a closer look

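Single libraries lay far from the others of their sex, by Dixon's criterion at the 95% level, in 18 of 378 groups of 4 or 5 libraries. Chance alone gives about 1 in 20 groups, and the values are reported without weighing an explanation.

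Male replicate 1 was the most frequent. It had 5320 CPM for S-Lap1 (4220 to 4460 in the other males), 2720 CPM for S-Lap2 (2150 to 2180), 3440 CPM for S-Lap7 (2890 to 2910), 1700 CPM for Mst98Ca (1330 to 1410) and 236 CPM for Prosbeta5R1 (190 to 199). Its summed CPM was 18600 for the sperm tail list (14700 to 15800 in the other males) and 18500 for the sperm leucyl aminopeptidases (15300 to 15600). It was low for the summed oogenesis list, at 801 CPM (856 to 871), and for pigmentation and tanning genes, at 198 CPM (232 to 241). Male replicate 3 had 30.8 CPM for lov (26.8 to 27.6).

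Female replicate 5 had 1210 CPM for apolpp (1540 to 1570 in the other females) and 2.43 CPM for eater (4.62 to 4.72), and ribosomal protein genes took 20.8% of its counts (19.7% in each of the others). The remaining cases were single counts in 1 female library with 0 in the others, namely 0.0458 CPM for CG43192 and for CG43271 in female replicate 4, 0.0578 CPM for CR45879 in female replicate 2, and 0.0456 CPM for ORY and for lncRNA:CR45876 in female replicate 3.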

How the results depend on the processing

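Of 2597 recomputed log2 fold changes of 153 genes, 2555 kept their direction and their side of the threshold, 32 lost a call, 7 gained one and 3 reversed. The reversals came with TMM factors from records over 2 CPM in all 9 libraries, which gave 0.03 for mle, 0.05 for Pif1A and 0.08 for alphaTub84B. The number of genes at least 2-fold higher in females, 473, was the least stable count. It was 275 with DESeq2 and 275 with RLE size factors, 1075 with library totals alone, 185 with the TMM factors above, 166 with the filter at 60% of libraries and 29 at 4-fold, and it ranged from 307 (without male replicate 1) to 553 (without female replicate 5) when a library was left out. Genes at least 2-fold higher in males, 3740, numbered 2153 with the 60% filter and 3714 to 3863 without single libraries. Genes with a record higher in males numbered 8791 without a filter (5219 to 5334 without single libraries), and those with a record higher in females numbered 660 at an adjusted p under 0.05 with at least 2-fold (5502 to 5981). Genes with sex-biased exon usage, 1793, numbered 1166 with a filter of over 5 CPM and 1537 to 2067 without single libraries. The causes were not tested. Calls were lost without 1 library for Pif1A, vas and Act87E, and gained for Cpr50Ca without male replicate 1 (0.23) and alphaTub84B without female replicate 5 (-0.17). The labels do not say whether the replicate numbers shared by the sexes (2, 3 and 5) pair the libraries. Correlations of same-numbered deviations were -0.011, -0.316 and 0.002, and those of different numbers ran from -0.36 to 0.354. So few pairs cannot decide whether libraries shared a collection or preparation. With a replicate block, record-level calls on the male and female sides covered 5607 and 5197 genes, the 2-fold calls covered 3890 and 355, and 2026 genes had biased usage. The same libraries without the block gave 5682 and 5360 at record level and 3898 and 363 at 2-fold. Depth limits the folds of the 342 genes that passed in males with 3 or fewer counts in each female library.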

Other observations

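Leaving out female replicate 5, the library with the fewest reads from male-limited genes, moved the list medians little for somatic genes and more for testis genes. The median log2 fold change of the 7 sperm leucyl aminopeptidases was 6.61 without it and 7.02 with it, that of the testis proteasome duplicates 6.27 and 6.7, and that of the Y-linked genes 6.7 and 7.13. For muscle it was -0.99 and -0.98, and for cuticle proteins -1.04 and -1.

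Among male libraries, replicates 2 and 5 held less Cpr30F, Cpr30B, Cpr64Ac, Cpr92F, CG13231, CG34327, CG34461, CG7214 and Vajk3 than replicates 1, 3 and 6, in every case without overlap between these libraries. The split was not present in Vajk2 or CG2444. Cpr30F had 6.49 and 7.44 CPM in replicates 2 and 5, and 16.2, 20.6 and 17.8 CPM in replicates 1, 3 and 6. The split was noticed in the data and was not tested.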
